A study of Homo sapiens with 8 samples.

Results

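Mitochondrial ribosomal protein genes are nuclear genes for the proteins of the ribosome inside mitochondria. The members were the rows whose gene symbol is MRPL or MRPS followed by a number and at most 1 letter from A to C, which leaves out pseudogenes. There were 78 members among 60676 rows, of which 49 carry large-subunit (MRPL) and 29 small-subunit (MRPS) symbols. They were followed in 8 RNA-seq libraries from a mouse xenograft of MOLM14, a human acute myeloid leukaemia cell line whose labelled genotype is FLT3-ITD, MLLr. All 8 libraries share that line and genotype, and each combination of drug, diet and tissue label has 1 library. Animals had received the FLT3 inhibitor gilteritinib or vehicle for 1 week, and a ketogenic or a standard diet for 3 weeks. The 4 libraries of marrow hold human CD45 positive cells after sorting. The others, called labelled liver here, are described as extracts of liver with murine and human cells. The labels do not give the strain or age of the mice, nor how many animals a library represents. With 1 library per combination, p-values do not measure the spread between animals or between like libraries. They lean on the spread shared between genes. The 4 marrow libraries carry 1 batch tag and the 4 labelled-liver libraries another, so tissue label and batch cannot be told apart.

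The mitochondrial ribosome, or mitoribosome, translates only the messenger RNAs made from mitochondrial DNA, which encode core subunits of the oxidative phosphorylation complexes. Its ribosomal RNAs are themselves made from mitochondrial DNA, whereas all of its proteins are imported from the cytosol. Many members have bacterial homologues, and others are found only in mitochondria. Symbols do not always match the subunit: MRPS30 and MRPS18A are proteins of the large subunit, and MRPS36 is now known as a component of the 2-oxoglutarate dehydrogenase complex. Acute myeloid leukaemia cells are known for their reliance on mitochondrial translation.

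Library totals lay between 13605936 and 33611830 counts. Under the labelled-liver label depth went with the drug, with totals of 26499478 and 27657147 in gilteritinib libraries, against 13605936 and 16542212 in vehicle libraries. The hepatocyte genes ALB, TTR, APOB and CYP3A4 had 0 counts in all 8 libraries, and the 8 hepatocyte markers summed to between 0.291 and 1.25 TMM-scaled CPM. The 9 leukaemia markers summed to between 1252 and 1714 TMM-scaled CPM. Levels are TMM-scaled CPM, with TMM factors set within each label, a scaling that assumes most genes keep their level. In bulk RNA, fewer cells of a type and less RNA per cell cannot be told apart.

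Of the 78 members, 75 passed the filter of 10 counts in at least 2 libraries under each label. MRPL53 had 2 counts over all 8 libraries and MRPS24, a small-subunit protein, had 33, so neither was tested. MRPL38 had 60 counts and was tested only with all 8 libraries together. The other 75 members had between 305 counts for MRPL46 and 30100 counts for MRPS16, a small-subunit protein with a bacterial homologue. All 78 members had a gene in GENCODE 29, on 21 chromosomes. Of these, 37 shared no exonic bases with another gene and 41 shared some. MRPL12 was the only member with over 50% of its exonic bases shared (68.2%, with AC139530.2), so its counts are uncertain. Overlaps also touch MRPL34 (13.2% of exonic bases, mainly with ABHD8) and MRPL33 (21.1%, mainly with BABAM2). Among members with few counts, MRPL53 shared 45.2%, MRPL38 41.1%, MRPS24 23.2% and MRPL46 11.3%, each mainly with a gene on the same strand. How reads of shared exons were counted is not known, so these low counts are uncertain too. The 75 MRP pseudogene rows held 1197 counts, against 923465 counts for the members.

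Levels differed far more between members than between libraries. Per kilobase of exon, MRPS34 was highest with a mean of 126 TMM-scaled CPM per kb in labelled-liver libraries and 112 in marrow libraries. MRPS34 is a small-subunit protein whose loss destabilises that subunit. It was followed by MRPL18 with means of 122 in labelled liver and 111 in marrow. MRPL54 had means of 113 and 98.9 in the same order, MRPL51 90.5 and 74.4, and MRPS21 88.6 and 82.4. Neighbours in this order do not stand apart: the ranges of the 4 libraries of MRPS34 and MRPL18 overlapped under both labels.

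The lowest members per kilobase tested under each label were MRPL46, with means of 0.302 TMM-scaled CPM per kb in labelled liver and 0.25 in marrow, and MRPL2, with means of 3.13 in labelled liver and 2.92 in marrow. MRPL38 had means of 0.106 and 0.0912 in the same order, and MRPS24 0.062 and 0.0979. MRPL53 was at 0 in all 4 marrow libraries. All of these but MRPL2 share exonic bases with a gene on the same strand. The part of shared bases in these low levels was not tested. Within a label the median standard deviation of a member's log2 level over the 4 libraries was 0.11 under each label, against 1.3 between members. The protein levels of these members were not measured, and equal amounts in the ribosome do not require equal RNA levels.

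**Figure D1:**
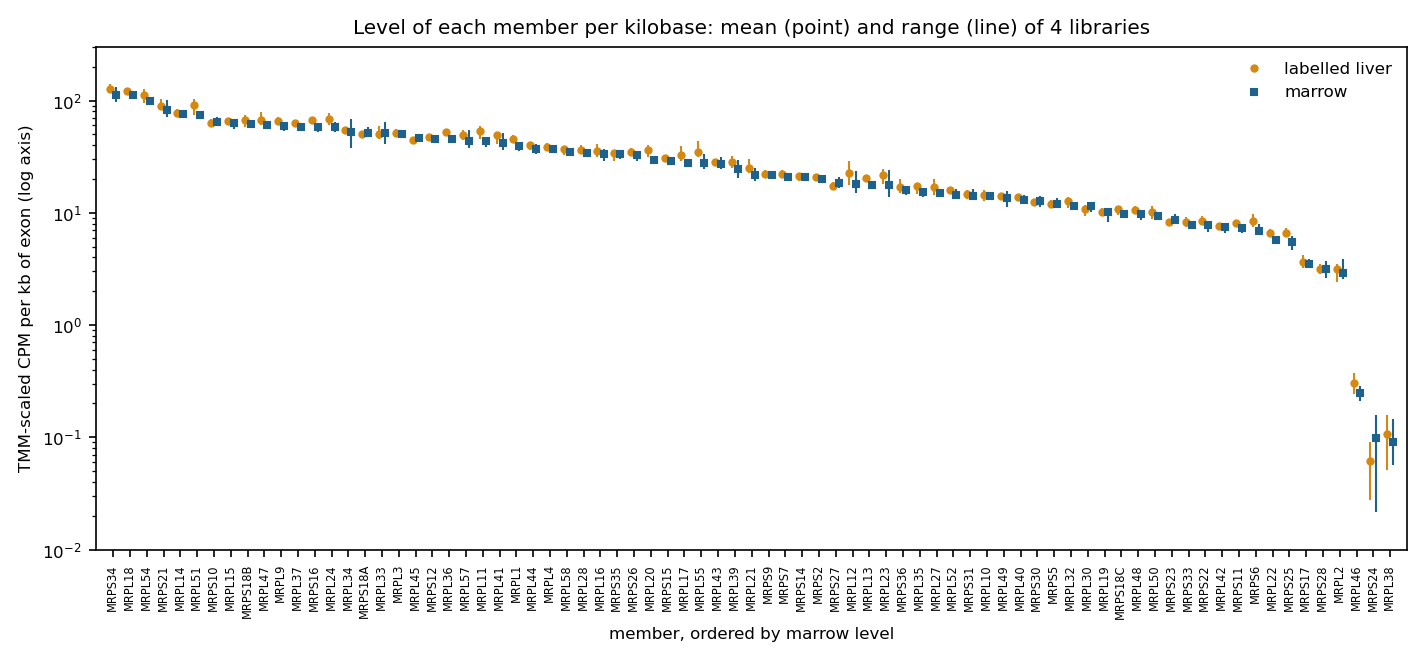
Level of each member in TMM-scaled CPM per kilobase of exon (log axis), ordered by marrow level, with labelled-liver libraries as circles and marrow libraries as squares. Points are means and lines ranges of 4 libraries; MRPL53, at 0 in marrow, is left out. The means of the 2 labels lie close together for most members, and MRPL46, MRPS24 and MRPL38 lie far below the rest.

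With TMM scaling the summed level of the members did not separate the drug groups. Summed over all 78, they made up 5357 and 5111 TMM-scaled CPM in marrow with gilteritinib (ketogenic and standard diet), against 5100 and 5177 with vehicle in the same diet order. In labelled liver the sums were 5974 and 5244 with gilteritinib, against 5762 and 5519 with vehicle. The marrow sums with and without drug overlapped, and so did those of labelled liver. Scaled by library totals, the marrow sums were 4954.5 and 4977.5 CPM with gilteritinib, against 5327 and 5483.5 with vehicle. On that scale the marrow groups did not overlap, and the median log2 fold change of all genes in marrow was -0.154. The labelled-liver sums overlapped on that scale too. With TMM scaling the highest of the 8 sums was that of the labelled-liver library with gilteritinib and ketogenic diet. With library totals it was that of the labelled-liver library with vehicle and ketogenic diet (5842.7 CPM, against 5764.1).

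**Figure D2:**
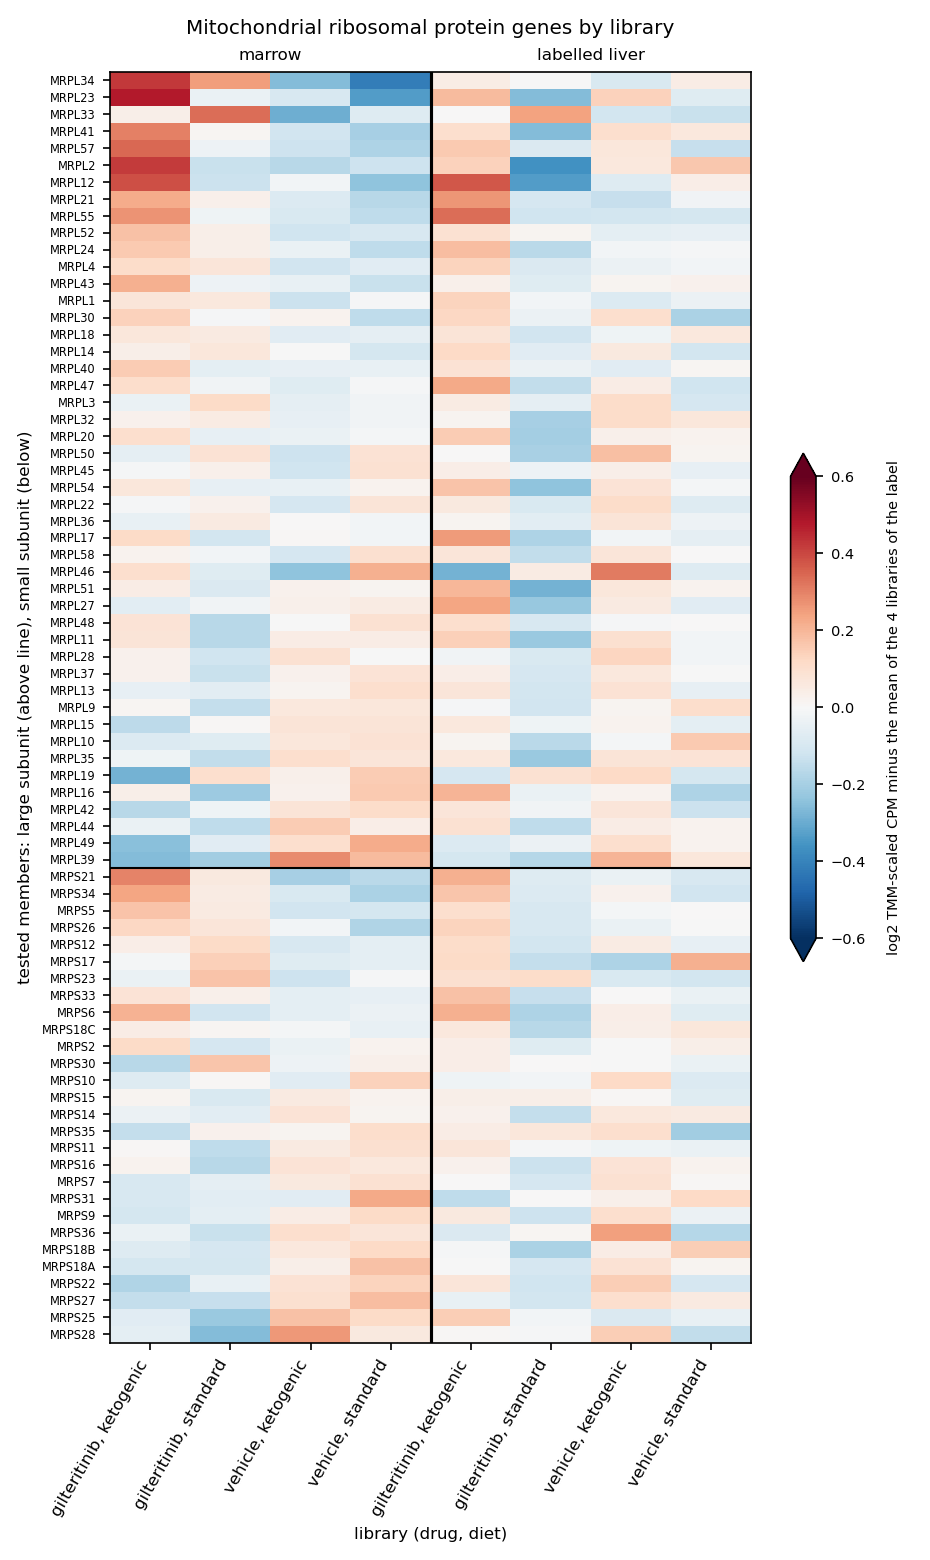
Log2 TMM-scaled CPM of the 75 tested members in each library, as the deviation from the mean of the 4 libraries of its label (red higher, blue lower). Columns run from gilteritinib to vehicle and from ketogenic to standard diet within each label; rows are ordered within each subunit by the drug difference in marrow. MRPL34 is red in both gilteritinib and blue in both vehicle libraries of marrow and close to white in labelled liver. Most rows of both subunits are blue in labelled liver with gilteritinib and standard diet.

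Gilteritinib was first set against vehicle in marrow, which asks how the sorted leukaemia cells differ after a week of drug. Few members changed: 5 rose and 1 fell out of 75, and 69 did not pass the threshold (threshold of 0.05 on the Benjamini-Hochberg adjusted p of edgeR's quasi-likelihood test). That is 8% of members, whereas 20.3% of the 14029 genes tested were called, 10.5% higher and 9.82% lower (1473 and 1377 genes; 874 and 2774 with library totals). Among 2221 other genes of like abundance, within the interquartile range of the members' mean levels, 25.5% were called. The median log2 fold change of the members was 0.011, against -0.006 over all genes, and 61 of 75 members lay within 0.25 of 0 on the log2 scale. Calls other than that of MRPL34 did not hold with each marrow library left out in turn. Those fits make the drug effect a ratio of single libraries, and the share of all genes called fell in them too. The members' median ranged from -0.064 to 0.063 over them. DESeq2 and edgeR without the count filter called 1 each, MRPL34.

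MRPL34 showed the widest difference. It is a small protein of the large subunit with a bacterial homologue, and its gene lies at chr19:17292609-17306843 (GRCh38). It had 115 and 102 TMM-scaled CPM with gilteritinib (ketogenic and standard diet), against 71.6 and 64.3 with vehicle in the same diet order. Both gilteritinib libraries of the marrow were above both vehicle libraries under either diet. The log2 fold change was 0.68 with a standard error of 0.11 (edgeR, adjusted p = 5.99e-06), and MRPL34 passed the threshold under each of the 10 other settings and left-out libraries tried.

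The other 4 members that rose did so by less. MRPL23 (chr11:1947278-1984522), whose bacterial homologue sits at the exit of the peptide tunnel, had 71.5 and 50 TMM-scaled CPM with gilteritinib, against 48.1 and 40.7 with vehicle, both ketogenic diet first. Its groups did not overlap, yet the gilteritinib library on standard diet was close to the vehicle library on ketogenic diet. The log2 fold change was 0.43 ± 0.12 (SE; edgeR, adjusted p = 0.00618).

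MRPL33 (chr2:27771717-27988087), a short large-subunit protein, had 79.7 and 98.3 TMM-scaled CPM with gilteritinib, against 63.6 and 73.9 with vehicle. Here the standard-diet library was the higher one in each pair. The log2 fold change was 0.37 ± 0.11 (SE; edgeR, adjusted p = 0.0138).

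MRPS21 (chr1:150293720-150308979), a small-subunit protein with a bacterial homologue, had 165 and 139 TMM-scaled CPM with gilteritinib, against 117 and 120 with vehicle, for a log2 fold change of 0.36 ± 0.11 (SE; edgeR, adjusted p = 0.0142). MRPL57 (chr13:21176645-21179084), a mitochondria-specific protein of the large subunit, had 122 and 94.3 with gilteritinib, against 88.5 and 84.8 with vehicle, for 0.31 ± 0.11 (SE; edgeR, adjusted p = 0.0408). In both genes the gilteritinib library on ketogenic diet was the highest of the marrow.

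MRPL39 was the only member that fell in marrow with TMM scaling. It is a mitochondria-specific protein of the large subunit, encoded at chr21:25585656-25607517. It had 24.2 and 25.1 TMM-scaled CPM with gilteritinib, against 35.3 and 33.1 with vehicle, so the groups were well apart under both diets. The log2 fold change was -0.47 ± 0.13 (SE; edgeR, adjusted p = 0.00778). When counts were scaled by library totals, the median of all genes in marrow shifted to -0.154, and 2774 of 14029 genes fell. On that scale MRPL34 rose by 0.53 on the log2 scale and 11 of 75 members fell, MRPL39 among them with -0.62. The other 4 members that had risen kept positive values of 0.16 to 0.29 on that scale but missed the threshold. Over all 10 settings and left-out libraries, MRPL23 passed in 5, MRPS21 and MRPL39 in 4 each, MRPL33 in 3 and MRPL57 in 2.

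**Figure D3:**
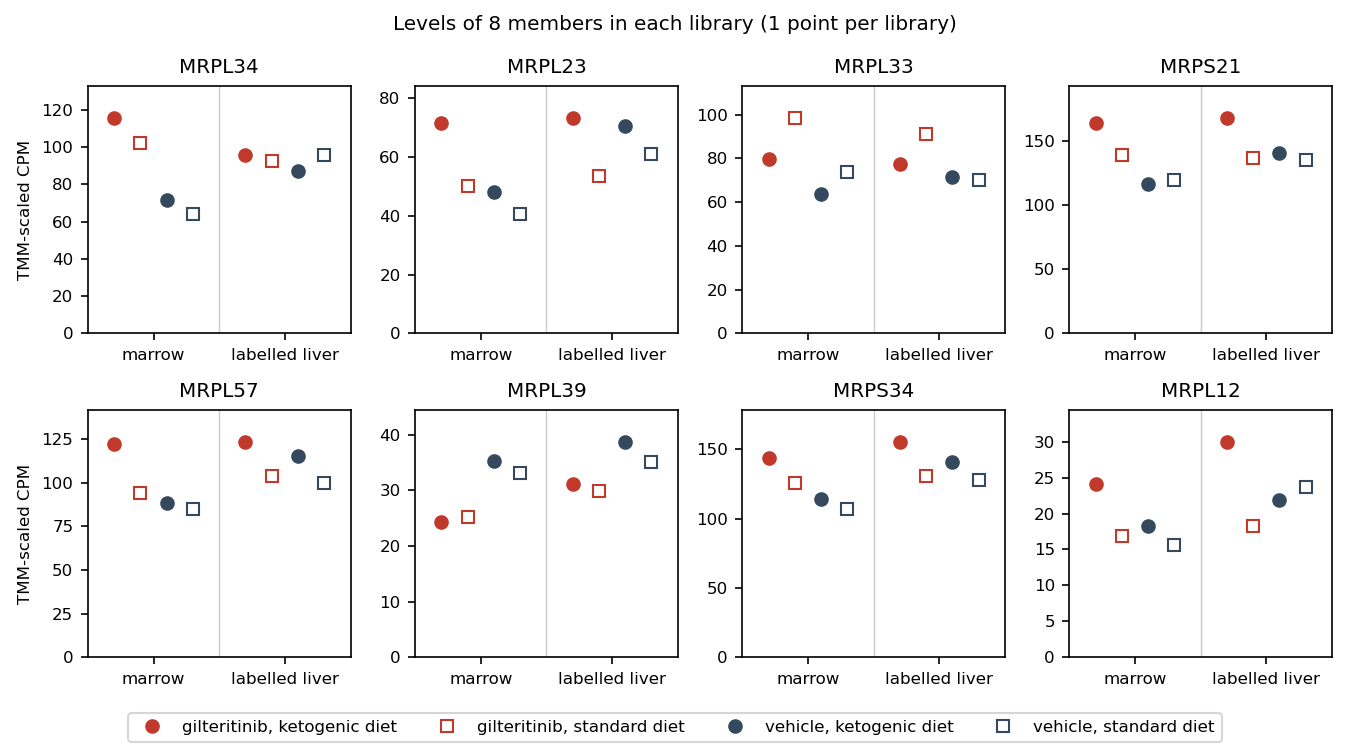
TMM-scaled CPM (vertical axes from 0) of the 6 members called in marrow, and of MRPS34 and MRPL12, with 1 point per library; gilteritinib in red, vehicle in dark blue, ketogenic diet filled and standard diet open. In marrow the MRPL34 points with gilteritinib (115 and 102) stand above those with vehicle (71.6 and 64.3), and those of MRPL39 (24.2 and 25.1) stand below (35.3 and 33.1); in labelled liver the MRPL34 points lie together.

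Values follow for other members with described roles, none of which passed the threshold in marrow. MRPL11, at the base of the stalk that recruits translation factors, had 115 and 97.6 TMM-scaled CPM with gilteritinib, against 113 and 113 with vehicle (log2 fold change -0.09 ± 0.11, SE). MRPL12, the stalk protein that has also been reported to bind the mitochondrial RNA polymerase, had 24 and 16.8 with gilteritinib, against 18.2 and 15.6 with vehicle (log2 fold change 0.26 ± 0.15, SE). MRPL58, a peptidyl-tRNA hydrolase that rescues stalled ribosomes, had 38.8 and 37.8 with gilteritinib, against 35.7 and 40.8 with vehicle. The gilteritinib and vehicle libraries overlapped in MRPL11, MRPL12 and MRPL58.

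In the small subunit, MRPS12, a protein of the decoding centre, had 99.8 and 105 TMM-scaled CPM with gilteritinib, against 90.8 and 93.5 with vehicle (log2 fold change 0.15 ± 0.11, SE). MRPS16 and MRPS22, both known from inherited defects of oxidative phosphorylation, had log2 fold changes of -0.15 ± 0.11 and -0.22 ± 0.12 (SE). MRPS34 had 144 and 126 with gilteritinib, against 114 and 107 with vehicle. Its libraries did not overlap, but its adjusted p was 0.0519 (edgeR; log2 fold change 0.29 ± 0.11, SE).

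The 3 paralogues of bacterial S18 did not share a sign. MRPS18A and MRPS18B had log2 fold changes of -0.21 ± 0.11 and -0.18 ± 0.11 (SE), while MRPS18C, the paralogue placed at the bacterial position, had 0.06 ± 0.12 (SE). MRPL37 and MRPS30, 2 mitochondria-specific proteins of the large subunit, had -0.11 ± 0.11 and 0.00 ± 0.11 (SE). None of these 5 passed the threshold. By symbol, 4 MRPL genes rose and 1 fell out of 47, with a median of 0.02, and 1 MRPS gene rose out of 28, with a median of -0.09.

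Both diets gave a drug ratio of their own, between pairs of libraries that share none. In marrow the median member ratio of gilteritinib over vehicle was 0.063 on the ketogenic diet and -0.070 on the standard diet (log2). Of 75 members, 28 were higher in both pairs and 28 lower in both, 74.7% with the same sign, against 71.3% of all genes. Over all 75 members, 23 had both gilteritinib libraries above both vehicle libraries (28.5% of all genes) and 23 had them below (29.3% of all genes). Both counts are near what all genes show.

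Other gene groups of the same cells are given beside the members. Of 86 tested cytosolic ribosomal protein genes, 72 rose and 1 fell in marrow with gilteritinib, with a median log2 fold change of 0.44. With either ketogenic-diet library of the marrow left out, only 2 of these 86 were called, and without the count filter 42 were. Of 79 nuclear genes for subunits of oxidative phosphorylation, 20 rose and 2 fell, with a median of 0.19. With library totals 6 of these 79 rose and 6 fell, DESeq2 called 8, and none was called with either ketogenic-diet library of the marrow left out. Among the members 12 of 75 were called with library totals, where 26% of 14029 genes were. Whether the members differ from these groups was not tested.

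Transcripts of mitochondrial DNA, which this ribosome contains or translates, were higher in marrow with gilteritinib. The ribosomal RNA MT-RNR1 rose by 0.50 ± 0.11 and MT-RNR2 by 0.40 ± 0.12 in log2 units (SE; adjusted p = 0.000952 and 0.012 in edgeR). Of the 10 other settings and left-out libraries, MT-RNR1 passed in 8 and MT-RNR2 in 5. Summed, both had 15930 and 12317 TMM-scaled CPM with gilteritinib (ketogenic and standard diet), against 11693 and 9473 with vehicle. Scaled by library totals, the sums were 14733 and 11995 CPM with gilteritinib, against 12214 and 10033 with vehicle, so these groups overlapped. Libraries were prepared for messenger RNA, so the recovery of these RNAs also depends on their tails. Of the 13 mitochondrial messenger RNAs, 6 rose, among them MT-ND3 by 0.49 ± 0.11 and MT-CYB by 0.37 ± 0.12 (SE), and 7 did not pass. Without either library on standard diet MT-ND3 alone of these 6 passed, and without either on ketogenic diet none did. Their sum was 124270 and 91942 TMM-scaled CPM with gilteritinib, against 101600 and 78110 with vehicle. Diet and drug both went with this sum, and its drug groups overlapped. In labelled liver the log2 fold changes for the drug were 0.00 ± 0.13 for MT-RNR1 and 0.00 ± 0.14 for MT-RNR2 (SE).

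Lists of genes that act with the mitoribosome are read against the 20.3% of all genes called in marrow. None of the 5 mitoribosomal proteins with other names, DAP3, CHCHD1, AURKAIP1, GADD45GIP1 and PTCD3, was called in any comparison by edgeR, and none had an unadjusted p under 0.05 for the drug in marrow. Of 16 tested factors of mitochondrial translation, 1 fell (6.25%), the release factor MTRF1 (log2 fold change -0.50 ± 0.19, SE; edgeR, adjusted p = 0.0479). Of 26 tested assembly factors, 2 were called (7.69%). METTL15, which methylates the small ribosomal RNA, had a log2 fold change of -0.66 ± 0.18 (SE; adjusted p = 0.00537) and fell, YBEY, an endonuclease, rose by 0.53 ± 0.14 (adjusted p = 0.00508), and 24 did not pass. Of 17 tested genes of mitochondrial transcription and RNA handling, 3 fell (17.6%, near the share of all genes) and 14 did not pass. These 3 are TFAM, which packages mitochondrial DNA (-0.37 ± 0.11, SE), the transcription factor TFB2M (-0.49 ± 0.13) and the elongation factor TEFM (-0.66 ± 0.19). Over the 10 other settings and left-out libraries, the call of MTRF1 held in 1, those of YBEY and TFAM in 5 each, and those of METTL15, TFB2M and TEFM in 6 each.

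Among 8 tested regulators of nuclear genes for mitochondria, 2 rose and 2 fell in marrow, 50% of a short list, against 20.3% of all genes (10.5% higher and 9.82% lower). MYC rose by 0.39 ± 0.11 and the nuclear receptor ESRRA by 0.34 ± 0.12 in log2 units (SE; adjusted p = 0.00958 and 0.0352 in edgeR). The ETS factor GABPA and its partner GABPB1, which bind promoters of many mitochondrial genes, had log2 fold changes of -0.54 ± 0.13 and -0.50 ± 0.14 (SE; edgeR, adjusted p = 0.0015 and 0.00732). Of the 10 other settings and left-out libraries, GABPA passed in 8, MYC in 5, GABPB1 in 4 and ESRRA in 3. With library totals as the scale, neither MYC nor ESRRA passed the threshold. Markers of macrophages also differed: the 7 markers summed to 75.4 and 65.7 TMM-scaled CPM with gilteritinib, against 22 and 30.9 with vehicle, mostly from CSF1R and CD163, with C1QB at 0 in every library. The 7 proliferation genes, all of which fell in marrow, summed to 421 and 344 TMM-scaled CPM with gilteritinib, against 936 and 947 with vehicle. The part of both lists in the members' values was not tested.

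Promoter sequences were looked at because GABPA, YY1 and NRF1 are known regulators of nuclear genes for mitochondria. The RefSeq table of promoters (GRCh38.p14) had windows for 69 of the 78 members, and 250 bases before each start were searched on both strands. The ETS core CCGGAAG was in 25 of 69 members (36.2%), against 20.1% of 9401 tested genes with a window and 10.2% of 27305 genes in the table. The YY1 core AAGATGGC was in 7.25% of members and 2.53% of tested genes, the palindromic NRF1 site in 1.45% and 2.39%, its shorter form TGCGCA in 21.7% and 14.1%, and the E-box CACGTG in 11.6% and 11.4%. The CCAAT box was less frequent in members, in 30.4% of them and 41.8% of tested genes. The windows of 4 members are shown, as the 150 bases before the start on the gene's strand, with ETS cores of either strand in capitals. They were chosen for holding 3 cores in the member with the highest level per kilobase (MRPS34), a core in a gene that rose (MRPL33 and MRPS21), and no core in the gene that fell (MRPL39).
MRPS34: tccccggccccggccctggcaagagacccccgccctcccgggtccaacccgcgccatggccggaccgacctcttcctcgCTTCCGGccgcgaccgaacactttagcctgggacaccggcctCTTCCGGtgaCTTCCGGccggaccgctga
MRPL33: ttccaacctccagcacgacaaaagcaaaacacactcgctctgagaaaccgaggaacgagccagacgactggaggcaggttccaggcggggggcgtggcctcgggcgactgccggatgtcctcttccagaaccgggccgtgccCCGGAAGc
MRPS21: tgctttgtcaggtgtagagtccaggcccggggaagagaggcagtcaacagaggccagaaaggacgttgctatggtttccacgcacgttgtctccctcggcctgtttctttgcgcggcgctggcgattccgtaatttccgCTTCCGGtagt
MRPL39: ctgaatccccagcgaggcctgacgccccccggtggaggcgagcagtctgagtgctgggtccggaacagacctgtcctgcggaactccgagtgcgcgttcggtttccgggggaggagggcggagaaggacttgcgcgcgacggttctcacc
They lie at chr16:1773135-1773284 on the minus strand, chr2:27771569-27771718 and chr1:150293711-150293860 on the plus strand, and chr21:25607482-25607631 on the minus strand. Starts here are those of the RefSeq table, which differ from GENCODE 29. Each window shown overlaps the GENCODE 29 span of its gene, that of MRPS21 over most of its length. Of the 5 called members with a window, MRPL33 and MRPS21 held the ETS core. MRPL34 and MRPL57, which also rose, held none, and neither did MRPL39, which fell. The windows shown were thus picked by outcome and do not link the core to a rise. For gilteritinib in marrow the 23 tested members with an ETS core had a median log2 fold change of 0.075, and the 43 tested members without one 0.005. The 15 with TGCGCA, MRPL34 and MRPL57 among them, had a median of 0.073, and the 51 without it -0.006. A matching stretch of letters is a description and does not show that a factor binds there.

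Drug values in marrow also varied with properties of the transcripts. Over the 75 members, Spearman's rho between the log2 fold change and the GC share of the transcript was 0.395 for gilteritinib and 0.449 for the ketogenic diet in marrow, as a description over genes of the same libraries. The same measure over all 11230 genes with a transcript was 0.344 and 0.375. With coding length the members' rho was -0.305 for gilteritinib in marrow, against -0.226 over all 11230 genes with a transcript. In labelled liver the values with GC share were 0.0389 for the drug and 0.0906 for the diet. With coding length they were -0.163 for the drug and -0.272 for the diet, against -0.0938 and -0.268 over all 11242 genes with a transcript. The part of GC content and length in the members' values was not tested.

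In labelled liver no member was called for gilteritinib (0 of 75 by edgeR, DESeq2 and limma-voom; 0 with an unadjusted p under 0.05 in edgeR), where 2.26% of 14092 genes were, 1.41% higher and 0.844% lower. Both gilteritinib libraries were above both vehicle libraries in 8 members (18.1% of all genes) and below in 13 (18.3% of all genes). The members' median log2 fold change was -0.024, and 73 of 75 lay within 0.25 of 0. Among members whose mean log2 CPM was 2 or more, the floor used for extremes throughout, the 2 highest values were those of MRPL33 (0.24 ± 0.13, SE) and MRPL55 (0.22 ± 0.13), and the 2 lowest those of MRPL39 (-0.27 ± 0.14) and MRPL2 (-0.21 ± 0.20). Under that floor, MRPL46 had -0.26 ± 0.32. MRPL39 had 31.2 and 29.8 TMM-scaled CPM with gilteritinib (ketogenic and standard diet), against 38.6 and 35.1 with vehicle. Its groups did not overlap there either. CSF1R and CD163 rose there with gilteritinib (0.52 ± 0.15 and 1.14 ± 0.25, SE; edgeR, adjusted p = 0.0236 and 0.00066). Within 1 diet the median member ratio of gilteritinib over vehicle was 0.041 on the ketogenic and -0.090 on the standard diet.

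The difference of the drug effect between labels was tested directly. It was called for 1 of 76 members, lower in labelled liver, against 2.49% of 14749 genes, 1.62% higher and 0.868% lower (239 and 128 genes; 332 and 71 with library totals, where the median of all genes was 0.115). MRPL34 had 95.8 and 92.7 TMM-scaled CPM with gilteritinib in labelled liver, against 87.2 and 95.9 with vehicle, so these groups overlapped, unlike in marrow. Its drug effect was lower in labelled liver than in marrow by a log2 difference of -0.64 ± 0.15 (SE; edgeR, adjusted p = 0.0264). That call was lost with library totals, without the count filter, and without any 1 of 6 libraries (the 4 of marrow and the 2 of labelled liver on standard diet), with adjusted p up to 0.322 over 13 settings. MRPL23 had a difference of -0.50 ± 0.17 that did not pass (adjusted p = 0.137), and the highest values were those of MRPS25 (0.42 ± 0.18, SE) and MRPL16 (0.35 ± 0.17). MRPL38, with 60 counts in all, had -0.71 ± 0.96 (SE). For MRPL39 the difference was 0.19 ± 0.18 (adjusted p = 0.659).

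With all 8 libraries in 1 fit, 1 of 76 members was called for the drug, in the lower direction, against 4.92% of 14749 genes, with 1.92% lower (442 higher and 283 lower; 287 and 627 with library totals). MRPL39 fell, with a log2 fold change of -0.37 ± 0.09 (SE; edgeR, adjusted p = 0.0349), lower with gilteritinib in 4 of 4 pairs of libraries. MRPL33 had 0.31 ± 0.09 (adjusted p = 0.0522) and MRPL34 0.36 ± 0.12 (adjusted p = 0.1). Without the labelled-liver library with vehicle and standard diet, 6 of 76 members were called, namely MRPL21, MRPL33, MRPL34, MRPL39, MRPL49 and MRPS21. In that fit 13.8% of 14732 genes were called (2036), so the calls grew over all genes as well. The call of MRPL39 was lost without any 1 of 6 libraries (the 4 of marrow and the 2 of labelled liver on ketogenic diet), with adjusted p up to 0.132.

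The ketogenic diet was set against the standard diet next. In marrow no member was called (0 of 75 by edgeR, DESeq2 and limma-voom; 4 with an unadjusted p under 0.05 in edgeR), where 0.492% of genes were (48 higher and 21 lower; 34 and 24 with library totals). The median log2 fold change was 0.036, with 44 positive and 31 negative values. Between pairs of libraries it was 0.089 with gilteritinib (48 of 75 higher) and -0.023 with vehicle (27 of 75 higher), so its sign differed between drug arms. The 13 mitochondrial messenger RNAs had a median of 0.41 on the ketogenic diet in marrow, all positive, of which 2 rose. These were MT-ATP8 (0.57 ± 0.10, SE; edgeR, adjusted p = 0.00112) and MT-ND4L (0.51 ± 0.11, SE; adjusted p = 0.0133), and neither passed without any 1 of the 4 marrow libraries or without the count filter. MRPL23 had the highest value (0.38 ± 0.12, SE; edgeR, adjusted p = 0.181), followed by MRPL12 (0.37 ± 0.15; adjusted p = 0.402). MRPL12 had 24 TMM-scaled CPM on the ketogenic diet with gilteritinib, against 16.8 on the standard diet with gilteritinib. With vehicle it had 18.2 on the ketogenic diet, against 15.6 on the standard diet. MRPL33 (-0.26 ± 0.11) and MRPL19 (-0.25 ± 0.12) had the lowest values.

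In labelled liver the members leaned to higher values on the ketogenic diet, each by little. None of 75 was called (0 by edgeR, DESeq2 and limma-voom; 6 with an unadjusted p under 0.05 in edgeR), where 1.01% of genes were, 0.362% higher and 0.653% lower. Yet 70 of 75 had a positive log2 fold change, against 50.4% of all genes, and their median was 0.111, against 0.002 over all genes. Both ketogenic libraries were above both standard libraries in 32 of 75 members (17.4% of all genes), and below in 0 (18.5% of all genes). On the scale of library totals, 64 of 75 were positive and the median was 0.081. The other gene groups leaned the same way, with medians of 0.14 for cytosolic ribosomal proteins and 0.16 for nuclear subunits of oxidative phosphorylation. The mitochondrial messenger RNAs had a median of -0.06. Values went with coding length: the 25 members of 207 to 519 coding bases had a median of 0.18, against 0.10 for 935 other genes in that range. The 25 members of 774 to 1449 coding bases had 0.08, against 0.01 for 3565 other genes in that range. Among macrophage markers, CSF1R fell on the ketogenic diet in labelled liver (-0.60 ± 0.15, SE; edgeR, adjusted p = 0.0098) and CD163 had -0.75 ± 0.24 (adjusted p = 0.0976). The 7 markers summed to 36.3 and 23.3 TMM-scaled CPM on the ketogenic diet (gilteritinib and vehicle), against 54 and 36.4 on the standard diet. The part of length and of these markers in the lean was not tested.

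The lean was uneven between drug arms. The median member ratio of ketogenic over standard diet was 0.180 with gilteritinib, with 66 of 75 members higher, and 0.057 with vehicle, with 51 of 75 higher. By summed TMM-scaled CPM, gilteritinib with ketogenic diet was highest in labelled liver (5974) and gilteritinib with standard diet lowest (5244). With library totals the lowest was the same library (5283.3 CPM), but the highest was that with vehicle and ketogenic diet (5842.7 CPM).

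By gene, MRPL23 had 73.1 and 70.6 TMM-scaled CPM on the ketogenic diet in labelled liver (gilteritinib and vehicle), against 53.5 and 61 on the standard diet. Its log2 fold change was 0.33 ± 0.13 (SE; edgeR, adjusted p = 0.287). MRPL12 had 29.9 and 21.9 on the ketogenic diet, against 18.3 and 23.7 on the standard diet, so its groups overlapped (0.32 ± 0.16; adjusted p = 0.433). MRPL11 had 150 and 145 on the ketogenic diet, against 116 and 134 on the standard diet, without overlap (0.24 ± 0.13; adjusted p = 0.496). The lowest values were those of MRPS31 (-0.12 ± 0.15) and MRPL33 (-0.11 ± 0.13).

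**Figure D4:**
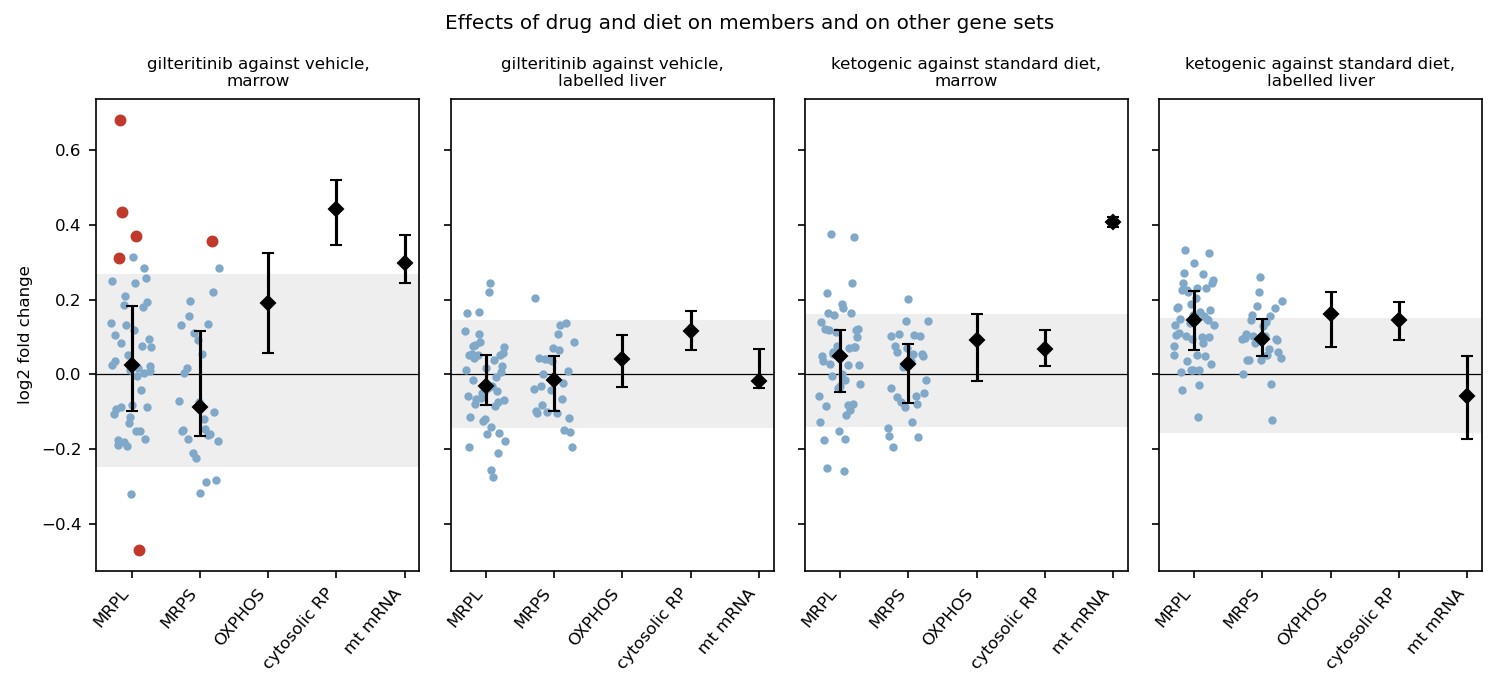
Log2 fold changes for drug and diet under each label: 1 point per tested member (red where the adjusted p is under 0.05), and the median (diamond) with quartiles (bars) of the large-subunit (MRPL) and small-subunit (MRPS) members, nuclear subunits of oxidative phosphorylation (OXPHOS), cytosolic ribosomal proteins (cytosolic RP) and mitochondrial messenger RNAs (mt mRNA); the grey band spans the quartiles of all genes tested. Members lie around 0 for the drug, with 6 red points in marrow, and above 0 for the diet in labelled liver, where their median is 0.111.

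The difference of the diet effect between labels was called for no member and for no other gene by edgeR (0% of 14749; 0 members and 712 genes with an unadjusted p under 0.05; 3 genes by DESeq2 and 3 by limma-voom, no member among them). The median difference of the members was 0.07, labelled liver minus marrow, with 57 of 76 values positive. It ranged from 0.003, without the labelled-liver library with gilteritinib and standard diet (39 of 75 positive), to 0.161, without either vehicle library of labelled liver (67 of 76 positive). MRPL50 (0.35 ± 0.18, SE) and MRPL27 (0.32 ± 0.17) had the highest values, and MRPL34 (-0.22 ± 0.15) and MRPL43 (-0.12 ± 0.15) the lowest. With all 8 libraries in 1 fit, no member was called for the diet (0.136% of genes, 0.0814% higher and 0.0542% lower; 9 members with an unadjusted p under 0.05; 0 members by DESeq2 and limma-voom), and 65 of 76 values were positive with a median of 0.07. There too MRPL23 (0.37 ± 0.11; adjusted p = 0.368) and MRPL12 (0.35 ± 0.13; adjusted p = 0.451) were highest, and MRPL33 (-0.18) and MRPS31 (-0.14) lowest above the floor, with MRPL38 at -1.03 ± 0.45 under it (adjusted p = 0.517, edgeR). Without the labelled-liver library with vehicle and standard diet, MRPL23 was called, where 0.781% of 14732 genes were (115).

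Labelled liver was set against marrow last, a comparison in which tissue label, sorting and batch cannot be told apart. No member and no other gene was called by edgeR (0% of 14749; 22 members and 2026 genes with an unadjusted p under 0.05; 143 genes by DESeq2 and 3 by limma-voom, no member among them). Of 76 members, 69 had a positive value and the median was 0.121, against -0.001 over all genes. MRPL12 (0.34 ± 0.13, SE; adjusted p = 0.267) and MRPL55 (0.33 ± 0.09; adjusted p = 0.197) had the highest values, and MRPL45, which binds the ribosome to the inner membrane, (-0.07 ± 0.08) and MRPL30 (-0.06 ± 0.09) the lowest. MRPL55 had 81.5, 59.5, 59.9 and 60.1 TMM-scaled CPM in labelled liver, against 62.8, 51.1, 48.8 and 46.8 in marrow, from gilteritinib with ketogenic and standard diet to vehicle with ketogenic and standard diet. In each of these 4 pairs the labelled-liver library was higher, on levels whose TMM factors were set within each label. The median member ratio of labelled liver over marrow was 0.155 with gilteritinib and ketogenic diet, 0.059 with gilteritinib and standard diet, 0.166 with vehicle and ketogenic diet and 0.103 with vehicle and standard diet.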

How the data were processed

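RNA was measured in 8 libraries. The authors deposited raw gene counts, whole numbers with no normalization. STAR 2.7.3a and the build GRCh38 are named in the submitters' processing notes. How reads were assigned to genes, with which annotation and strand rule, and what was done with mouse reads were details not given in the sources used here. This leaves overlapping and antisense genes uncertain. Groups came from the labels. A gene needed 10 counts in 2 libraries to be tested. Libraries were scaled with TMM factors and fitted in edgeR 4.0.16 (R 4.3.3), per label with drug and diet as terms (1 residual degree of freedom), and over all 8 libraries with terms per label (2) or shared terms (4). P-values were two-sided and Benjamini-Hochberg adjusted over all genes tested, with a threshold of 0.05. They lean on the spread shared between genes. An SE is the fold change divided by the root of F. Ratios of 2 libraries used a prior count of 2 and no test. DESeq2 1.42.0 and limma 3.58.1 (voom), other scalings, no filter and left-out libraries were alternatives. The fits were tested on simulated counts. Coordinates came from GENCODE 29. Members and lists were chosen with earlier results of these data known. Called members were named, or the 2 highest and 2 lowest whose mean log2 CPM was 2 or more where none was called, with 12 always named, the 5 highest and 5 lowest per kilobase, and called genes of the lists; MRPL21 and MRPL49 were named after their values were seen.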

Additional observations from a re-analysis of the deposited data

Results flagged for a closer look

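The drug effect of MRPL34 differed between labels by -0.64 ± 0.15 (log2, labelled liver minus marrow, SE; edgeR, adjusted p = 0.0264). It had 95.8 and 92.7 TMM-scaled CPM with gilteritinib in labelled liver, against 87.2 and 95.9 with vehicle, and 115 and 102 with gilteritinib in marrow, against 71.6 and 64.3 with vehicle. The drug effect of MYC, a regulator of nuclear genes for mitochondria, differed by -0.64 ± 0.16 in the same direction (SE; edgeR, adjusted p = 0.0333), with 5 of 13 other settings past the threshold.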

How the results depend on the processing

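No paired analysis was possible because each combination of label, drug and diet has 1 library and no replicate number is shared. No called value of a member or named list gene changed sign. For gilteritinib in marrow, 6 members were called; 1 was with DESeq2, 1 without the count filter and 12 with library totals (1 rose, 11 fell; median -0.137, all genes -0.154), and 1 to 3 with a library left out. In the fit of all 8 libraries the drug call of 1 member became 2 with DESeq2, limma-voom or library totals (median -0.109, all genes -0.096), and 0 to 6 with a library left out. The difference of the drug effect, 1 member, became 0 with library totals or no filter, and 0 to 1 with a library left out. The diet call of all 8 libraries, 0, became 0 to 1. The cause was not tested. Of all genes, the drug in marrow was called for 2850, against 1170 with DESeq2, 1221 without the filter and 3648 with library totals. In labelled liver it was called for 318, against 50 with DESeq2 and 35 without the filter. The diet in marrow was called for 69, against 29 and 1, and in labelled liver for 143, against 12 and 0. Left-out fits make each label's effect a ratio of single libraries, and the lone library is assumed to vary like the others. With 1 library per group, changes of the size of the members' lean cannot be separated gene by gene.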
